A study of Caenorhabditis elegans with 8 samples.

Results

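*T24B8.5* and 9 other genes were examined as a set of intestinal immune effectors of *C. elegans*, genes described as acting downstream of the p38 MAP kinase PMK-1. The set was defined by sequence name: *T24B8.5* (*sysm-1* in RefSeq), *irg-4* (F08G5.6), *irg-5* (F35E12.5), *F35E12.8* (*cld-9* in RefSeq), *dod-22* (F55G11.5), *F55G11.8*, *dod-24* (C32H11.12), *dod-17* (K10D11.1), *C17H12.8* and *K08D8.5*. All 10 were present among the 45461 features of the deposited table and among the 21372 features with a count in at least 1 library, which were tested.

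The *C. elegans* intestine is the main site of contact with ingested bacteria. There the TIR-1 adaptor and the kinases NSY-1, SEK-1 and PMK-1 form a cascade that acts on the transcription factor ATF-7, and a large set of secreted proteins, among them lectins, lysozymes and proteins with CUB-like domains, depends on it for basal or pathogen-induced expression. *T24B8.5* encodes a small ShK-like peptide, and its promoter fused to GFP is a widely used readout of PMK-1 activity. The *irg* genes (infection response genes) were named for induction by pathogenic bacteria, and the *dod* genes (downstream of *daf-16*) for control by insulin signaling. Many of these genes respond to more than one pathway.

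RNA was measured in whole very young adults of 4 strains, with 2 biological replicates per strain. Each replicate held about 150 worms kept at 22.5°C on non-pathogenic bacteria. The strains were *cyp-36A1(lf); egl-9(lf)*, carrying *cyp-36A1(gk824636)* and *egl-9(sa307)*; *egl-9(lf) hif-1(lf)*, carrying *egl-9(sa307)* and *hif-1(ia4)*; *egl-9(lf)*, carrying *egl-9(sa307)* alone; and the wild type, N2. EGL-9 is the prolyl hydroxylase that marks the hypoxia-inducible factor HIF-1 for degradation. HIF-1 is thus constitutively active where *egl-9* is lost and *hif-1* is intact. CYP-36A1 is a cytochrome P450 enzyme whose gene the study placed downstream of HIF-1. No *pmk-1* mutant was among the libraries, so dependence on PMK-1 was not tested. Every mutant strain carried *egl-9(sa307)*, so an effect of *hif-1(lf)* or *cyp-36A1(lf)* was measured only in animals without *egl-9* function, and each genotype was 1 strain. Whole animals were used, so fewer intestinal cells and less RNA per cell cannot be told apart.

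Expected counts summed to between 11925027 and 22269111 per library. Among the mutated genes, that of HIF-1 gave 45.2 and 43.5 CPM (counts scaled to library size) in *egl-9(lf) hif-1(lf)*, against 161 and 143 CPM in *egl-9(lf)*. *cyp-36A1* RNA was at 4.78 and 19.4 CPM in *cyp-36A1(lf); egl-9(lf)*, against 29.4 and 55 CPM in *egl-9(lf)*, a difference that was not called by edgeR (log2 fold change -1.83, adjusted p = 0.086) but was called with the replicate block (-1.92, adjusted p = 5.5e-04). *gk824636* is a nonsense allele that need not remove the RNA. *egl-9* itself gave more RNA in its own mutant: 87.6 and 101 CPM in *egl-9(lf)*, against 27.1 and 25.9 CPM in the wild type (log2 fold change 1.83, adjusted p = 1.1e-05 by edgeR). The summed level of 9 intestine markers was 3334 and 3101 CPM in *cyp-36A1(lf); egl-9(lf)*, 2653 and 3588 CPM in *egl-9(lf) hif-1(lf)*, 3005 and 3153 CPM in *egl-9(lf)* and 3077 and 3194 CPM in the wild type. Of these sums *asp-1* alone gave 1596 to 2370 CPM per library, so they mostly follow that 1 gene. Replicates were least alike in *egl-9(lf) hif-1(lf)*: all 10 effectors were higher in replicate 2 than in replicate 1 there, by a median of 1.5 times and by 2.39 times at most (*dod-17*). The summed intestine markers were also higher in replicate 2 there, as were those of epidermis (1649 and 2178 CPM) and muscle (4673 and 5568 CPM). Summed germ line (1973 and 1883 CPM) and neuron markers (127 and 118 CPM) were lower in replicate 2. The part of this gap between replicates in the results below was not tested. In the other strains 3, 7 and 6 of the 10 effectors were higher in replicate 2, for *cyp-36A1(lf); egl-9(lf)*, *egl-9(lf)* and the wild type in turn.

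By RefSeq, *T24B8.5* is on chromosome II, away from every other gene of the set. *irg-5* and *F35E12.8* are on chromosome V with 2 protein-coding genes between them. The other 7 are on chromosome IV. Of those, *C17H12.8* and *irg-4* are far apart, whereas *K08D8.5*, *dod-24*, *F55G11.8*, *dod-22* and *dod-17* fall within a stretch of 22 protein-coding genes, and *F55G11.8* and *dod-22* are direct neighbours.

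Levels were compared between genes per length, as FPKM. *T24B8.5* had 5.12 and 6.41 FPKM in *cyp-36A1(lf); egl-9(lf)*, 39.9 and 81.1 FPKM in *egl-9(lf) hif-1(lf)*, 238 and 294 FPKM in *egl-9(lf)* and 60.5 and 63.0 FPKM in the wild type. It ranked 7th of the 10 in *cyp-36A1(lf); egl-9(lf)*, 2nd in *egl-9(lf) hif-1(lf)*, 4th in *egl-9(lf)* and 1st in the wild type. In the wild type its range overlapped that of *irg-4*, the next gene in the order (54 and 61 FPKM). Within *cyp-36A1(lf); egl-9(lf)* it overlapped those of *irg-5* and *dod-22*. The 10 genes together summed to 489 and 481 FPKM in *cyp-36A1(lf); egl-9(lf)*, 229 and 360 FPKM in *egl-9(lf) hif-1(lf)*, 1807 and 1874 FPKM in *egl-9(lf)* and 249 and 261 FPKM in the wild type. *T24B8.5* made up 1.05% and 1.33% of that sum in *cyp-36A1(lf); egl-9(lf)*, against 13.2% and 15.7% in *egl-9(lf)* and 24.2% and 24.1% in the wild type. The most abundant gene was *dod-24* in *cyp-36A1(lf); egl-9(lf)* (245 FPKM in each library), *irg-4* in *egl-9(lf) hif-1(lf)* and *irg-5* in *egl-9(lf)* (551 and 506 FPKM). The lowest in all 4 strains by mean was *F35E12.8*, a CUB-like domain gene, at 0.76 to 5.83 FPKM.

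**Figure D1:**
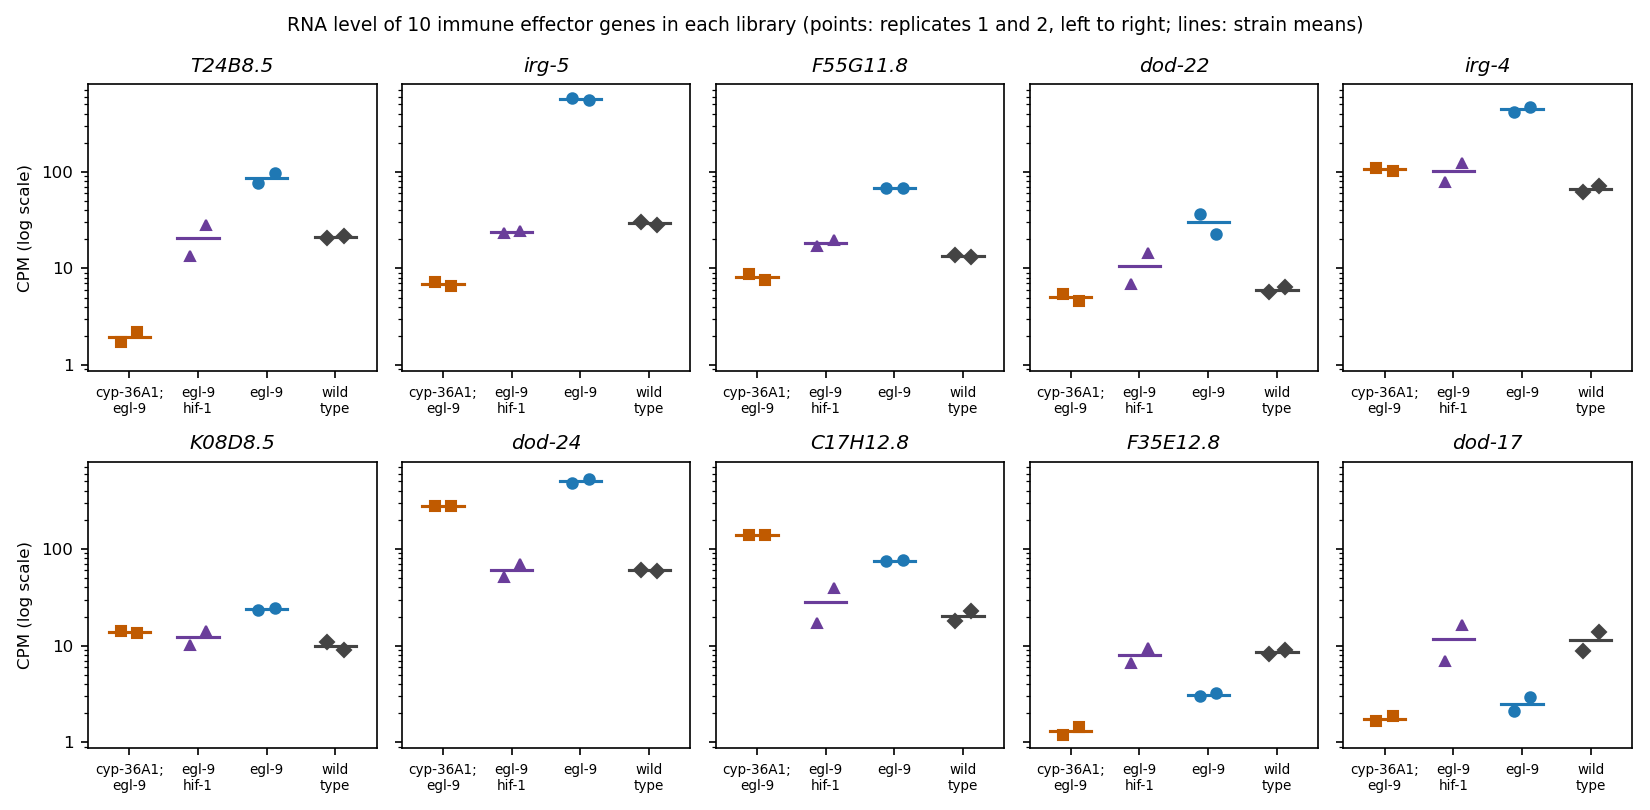
RNA level of each of the 10 effectors in CPM on a log scale, by strain; points are the 2 libraries of a strain and lines are strain means. *T24B8.5* lies at 1.75 and 2.18 CPM in *cyp-36A1(lf); egl-9(lf)*, under its level in every other library, whereas *C17H12.8* lies at 141 and 138 CPM there, over its level in every other library.

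The first comparison asked which effectors changed when *egl-9* was lost. All 10 were called different in *egl-9(lf)* mutants from the wild type, 8 higher and 2 lower, where 13.3% of all tested features were called (4.97% higher and 8.31% lower). The quasi-likelihood test of edgeR was used, with p-values adjusted by Benjamini-Hochberg over all tested features, and a gene was called at an adjusted p under 0.05. Of the 9 intestine markers, 2 (*vha-6* and *pgp-1*) were called in this comparison, both lower, and their part in the result was not tested. No effector's libraries overlapped between these strains, but neither did those of 7 of the 9 intestine markers. The share without overlap was not counted over all features. The median log2 fold change was 2.19 for the 10 genes and 0 for all features.

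*T24B8.5* had 76.5 and 96.0 CPM in *egl-9(lf)* mutants, against 20.5 and 21.5 CPM in the wild type (log2 fold change 2.04, SE 0.25, adjusted p = 2.9e-04 by edgeR). Of the other effectors, 5 rose by more. *irg-5*, an infection response gene, rose most, with 586 and 547 CPM in *egl-9(lf)* mutants, against 30.4 and 28.0 CPM in the wild type (log2 fold change 4.27, SE 0.12, adjusted p = 2.0e-09 by edgeR). *dod-24*, a CUB-like domain gene, had 485 and 525 CPM in *egl-9(lf)* mutants, against 60.5 and 59.4 CPM in the wild type (log2 fold change 3.07, SE 0.14). *irg-4*, another infection response gene, had 417 and 471 CPM, against 62.1 and 70.7 CPM in the wild type (log2 fold change 2.74, SE 0.18). Each of these sets of libraries was well separated from the wild type.

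The neighbours *F55G11.8* and *dod-22* rose by nearly the same amount. Their log2 fold changes were 2.34 (SE 0.14) and 2.33 (SE 0.32). *dod-22* was the less even, with 37 and 22.8 CPM in *egl-9(lf)* mutants, against 5.69 and 6.37 CPM in the wild type. *C17H12.8* had 74.7 and 76.2 CPM in *egl-9(lf)* mutants, against 18.1 and 22.7 CPM in the wild type (log2 fold change 1.90, SE 0.27). *K08D8.5* rose least, with 23.1 and 24.3 CPM, against 10.9 and 9.0 CPM in the wild type (log2 fold change 1.23, SE 0.18).

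A pair of effectors fell. *dod-17* had 2.11 and 2.93 CPM in *egl-9(lf)* mutants, against 8.76 and 13.9 CPM in the wild type (log2 fold change -2.14, SE 0.43, adjusted p = 0.0059 by edgeR). *F35E12.8* had 3.01 and 3.23 CPM in *egl-9(lf)* mutants, against 8.22 and 9.0 CPM in the wild type (log2 fold change -1.46, SE 0.24, adjusted p = 0.0019 by edgeR). Both are close neighbours of effectors that rose: *dod-17* lies 2 protein-coding genes from *dod-22*, and *F35E12.8* 2 from *irg-5*.

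The second comparison asked which of these differences depended on *hif-1*. All 10 effectors were called different in *egl-9(lf) hif-1(lf)* mutants from *egl-9(lf)* mutants, where 13.1% of all tested features were called (8.86% higher and 4.25% lower). The 8 that were higher in *egl-9(lf)* than in the wild type were lower here, and the 2 that were lower were higher here. The *egl-9(lf)* libraries serve in both comparisons, so the opposite signs are not independent of each other. Among cell type markers, the intestine markers *act-5* and *vha-6* were called higher here (log2 fold changes 0.65 and 0.63) and the muscle marker *myo-3* and the epidermis marker *col-10* lower (-0.58 and -0.88). Their part in the result was not tested.

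*T24B8.5* had 13.5 and 28.2 CPM in *egl-9(lf) hif-1(lf)* mutants, against 76.5 and 96.0 CPM in *egl-9(lf)* mutants (log2 fold change -2.04, SE 0.25, adjusted p = 2.4e-04 by edgeR). The 2 double mutant libraries lay on either side of the wild-type ones. *irg-5* fell most (log2 fold change -4.56), to 23.3 and 24.6 CPM in *egl-9(lf) hif-1(lf)* mutants, against 586 and 547 CPM in *egl-9(lf)* mutants. The other 6 that fell had log2 fold changes of -3.06 (*dod-24*), -2.13 (*irg-4*), -1.88 (*F55G11.8*), -1.48 (*dod-22*), -1.41 (*C17H12.8*) and -0.95 (*K08D8.5*). The call for *dod-22* rested on *egl-9(lf)* replicate 1, without which its log2 fold change was -1.04 (adjusted p = 0.056 by edgeR). *dod-17* and *F35E12.8* rose, with log2 fold changes of 2.25 and 1.38.

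Set against the wild type itself, none of the 10 effectors was called in *egl-9(lf) hif-1(lf)* mutants by edgeR, where 0.215% of all tested features were called (0.0842% higher and 0.131% lower). At an unadjusted p under 0.05 there were 4, and edgeR with its default estimate of the spread called 2, *irg-4* and *dod-22*. The shares above apply to neither of these counts. DESeq2 and limma called 0. *T24B8.5* averaged 20.8 ± 10.4 CPM in *egl-9(lf) hif-1(lf)* mutants and 21 ± 0.731 CPM in the wild type (SD, n = 2 each), a log2 fold change of 0.00 with a SE of 0.26, and its ranges overlapped. *irg-4* had 78.6 and 124 CPM in *egl-9(lf) hif-1(lf)* mutants, against 62.1 and 70.7 CPM in the wild type (log2 fold change 0.62, adjusted p = 0.76 by edgeR). Ranges did not overlap for 4 of the 10 genes, and for 3 of the 9 intestine markers, a share that was not counted over all features. Of those 4 genes *irg-5* lay lower, with 23.3 and 24.6 CPM in *egl-9(lf) hif-1(lf)* mutants, against 30.4 and 28.0 CPM in the wild type. Without *egl-9(lf) hif-1(lf)* replicate 1, *irg-4* was called (log2 fold change 0.91, adjusted p = 0.040 by edgeR).

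The third comparison asked which effectors depended on *cyp-36A1* in animals without *egl-9* function, and here the 10 genes parted. In *cyp-36A1(lf); egl-9(lf)* mutants, 6 were lower than in *egl-9(lf)* mutants, 0 were higher and 4 were not called, where 1.57% of all tested features were called (0.664% higher and 0.903% lower). The median log2 fold change was -1.67 for the 10 genes and 0 for all features. No effector's libraries overlapped between these strains, and the same held for 4 of the 9 intestine markers. The share without overlap was not counted over all features. With its default estimate edgeR called 9 effectors, and with the replicate block also 9. The shares above apply to neither of these fits. Fitted to these 2 strains alone, edgeR also called *C17H12.8* higher (log2 fold change 0.89, adjusted p = 0.0078) and *K08D8.5* lower (-0.77, adjusted p = 0.047). The number not called therefore depended on the fit.

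*T24B8.5* had 1.75 and 2.18 CPM in *cyp-36A1(lf); egl-9(lf)* mutants, from 34 and 35 counts, against 76.5 and 96.0 CPM in *egl-9(lf)* mutants. The fold change was -5.46 on the log2 scale (SE 0.34, adjusted p = 2.7e-06 by edgeR), or 44.1-fold lower. *irg-5* fell still further, with 7.30 and 6.53 CPM in *cyp-36A1(lf); egl-9(lf)* mutants, against 586 and 547 CPM in *egl-9(lf)* mutants (log2 fold change -6.35, SE 0.14, adjusted p = 2.4e-10 by edgeR), or 81.7-fold lower. These 2 genes fell by at least 2 log2 units more than any other effector.

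*F55G11.8*, *dod-22* and *irg-4* formed a middle group. *F55G11.8* had 8.69 and 7.64 CPM in *cyp-36A1(lf); egl-9(lf)* mutants, against 67.8 and 67.7 CPM in *egl-9(lf)* mutants (log2 fold change -3.05, SE 0.15). *dod-22* had 5.50 and 4.60 CPM, against 37 and 22.8 CPM in *egl-9(lf)* mutants (log2 fold change -2.57, SE 0.32). *irg-4* had 109 and 103 CPM, against 417 and 471 CPM in *egl-9(lf)* mutants (log2 fold change -2.07, SE 0.18). All 3 were called with each library left out in turn.

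*dod-24* fell by less than any other called effector, with 281 and 280 CPM in *cyp-36A1(lf); egl-9(lf)* mutants, against 485 and 525 CPM in *egl-9(lf)* mutants (log2 fold change -0.85, SE 0.13, adjusted p = 0.0043 by edgeR). Without *egl-9(lf)* replicate 2 the log2 fold change was -0.79 and it was not called (adjusted p = 0.057 by edgeR). *K08D8.5* had 14.2 and 13.5 CPM in *cyp-36A1(lf); egl-9(lf)* mutants, against 23.1 and 24.3 CPM in *egl-9(lf)* mutants (log2 fold change -0.77, SE 0.17, adjusted p = 0.051 by edgeR), and was called with the replicate block (adjusted p = 0.024) and in all but 8 of the 19 alternatives. *C17H12.8* was the only effector with a positive log2 fold change, 0.89 (SE 0.25, adjusted p = 0.15 by edgeR), and it was called higher with the default estimate (adjusted p = 8.6e-10) and with the replicate block (adjusted p = 0.038). Its libraries held 141 and 138 CPM in *cyp-36A1(lf); egl-9(lf)* mutants, against 74.7 and 76.2 CPM in *egl-9(lf)* mutants.

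Neither of the effectors that were low in *egl-9(lf)* mutants was called higher on loss of *cyp-36A1*. *F35E12.8* had 1.18 and 1.43 CPM in *cyp-36A1(lf); egl-9(lf)* mutants, against 3.01 and 3.23 CPM in *egl-9(lf)* mutants, with a log2 fold change of -1.26 (SE 0.33). Its adjusted p was 0.11 by edgeR, 0.0041 with the default estimate and 0.036 with the replicate block. *dod-17* had 1.64 and 1.86 CPM, against 2.11 and 2.93 CPM in *egl-9(lf)* mutants (log2 fold change -0.51, SE 0.57, adjusted p = 0.91 by edgeR). None of the 9 intestine markers was called between these strains by edgeR, with its default estimate or by DESeq2 or limma, and 1 had an unadjusted p under 0.05.

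**Figure D2:**
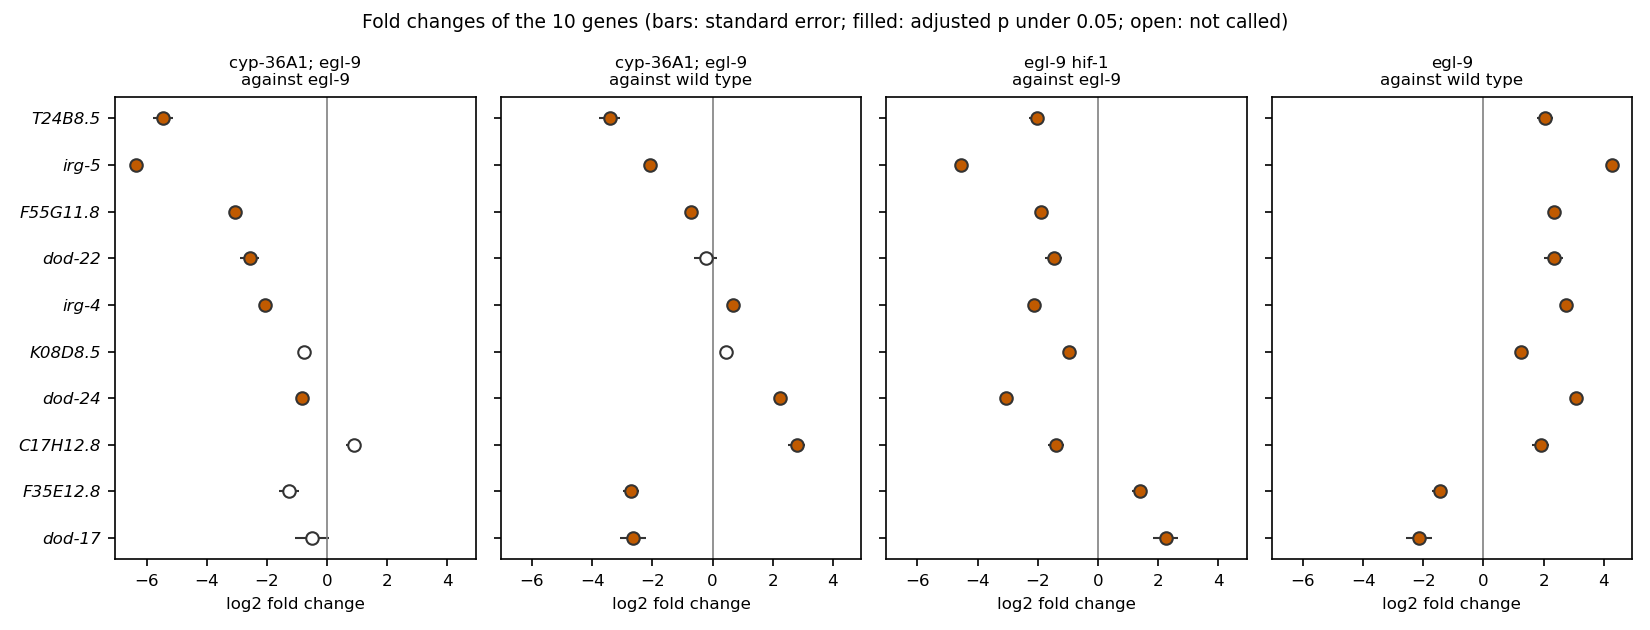
Log2 fold change of each effector in 4 comparisons, with the standard error (SE) as a bar; filled points were called at an adjusted p under 0.05 and open points were not. On loss of *cyp-36A1* from *egl-9(lf)* the 10 genes run between -6.35 (*irg-5*) and 0.89 (*C17H12.8*), with *T24B8.5* at -5.46.

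The fourth comparison set *cyp-36A1(lf); egl-9(lf)* mutants against the wild type, and 5 effectors were lower, 3 were higher and 2 were not called, where 12.2% of all tested features were called (4.72% higher and 7.47% lower). The intestine markers *vha-6* and *pgp-1* were also called lower here (log2 fold changes -0.74 and -1.34), and their part in the result was not tested. *T24B8.5* was the lowest relative to the wild type, with 1.75 and 2.18 CPM in *cyp-36A1(lf); egl-9(lf)* mutants, against 20.5 and 21.5 CPM in the wild type (log2 fold change -3.42, SE 0.36, adjusted p = 8.9e-05 by edgeR). So a gene that was above its wild-type level in *egl-9(lf)* mutants was 10.7-fold below it in the double mutants. *irg-5* did the same, with 7.30 and 6.53 CPM, against 30.4 and 28.0 CPM in the wild type (log2 fold change -2.08, SE 0.13, adjusted p = 9.7e-07 by edgeR). *F55G11.8* did so to a lesser extent, with 8.69 and 7.64 CPM, against 13.7 and 13.0 CPM in the wild type (log2 fold change -0.71, SE 0.16, adjusted p = 0.013 by edgeR).

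The call for *F55G11.8* was lost without either wild-type library or without *cyp-36A1(lf); egl-9(lf)* replicate 2, with log2 fold changes of -0.67, -0.74 and -0.62. *F35E12.8* and *dod-17*, which were already low in *egl-9(lf)* mutants, were also below the wild type, with log2 fold changes of -2.71 (SE 0.27) and -2.65 (SE 0.44). *dod-22* was not called, with 5.50 and 4.60 CPM in *cyp-36A1(lf); egl-9(lf)* mutants, against 5.69 and 6.37 CPM in the wild type (log2 fold change -0.23, SE 0.37). *K08D8.5* was not called either (log2 fold change 0.46, SE 0.19, adjusted p = 0.14 by edgeR).

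*C17H12.8* and *dod-24* stayed far above the wild type. *C17H12.8* had 141 and 138 CPM in *cyp-36A1(lf); egl-9(lf)* mutants, against 18.1 and 22.7 CPM in the wild type (log2 fold change 2.79, SE 0.27, adjusted p = 5.0e-05 by edgeR). *dod-24* had 281 and 280 CPM, against 60.5 and 59.4 CPM in the wild type (log2 fold change 2.23, SE 0.14, adjusted p = 8.8e-07 by edgeR). *irg-4* was higher by a smaller step, with 109 and 103 CPM, against 62.1 and 70.7 CPM in the wild type (log2 fold change 0.67, SE 0.18, adjusted p = 0.028 by edgeR), and it was not called without any 1 of these 4 libraries (adjusted p 0.087 to 0.27).

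The double mutants were also compared with each other. In *cyp-36A1(lf); egl-9(lf)* relative to *egl-9(lf) hif-1(lf)* mutants, 5 effectors were lower, 2 were higher and 3 were not called, where 12.2% of all tested features were called (3.95% higher and 8.25% lower). Of the markers, *ges-1* (intestine, 0.49) and *myo-3* (muscle, 0.49) were called higher and *vha-6* (intestine, -0.65) lower on the log2 scale, and their part in the result was not tested. *T24B8.5* had 1.75 and 2.18 CPM in *cyp-36A1(lf); egl-9(lf)*, against 13.5 and 28.2 CPM in *egl-9(lf) hif-1(lf)* (log2 fold change -3.42, SE 0.36, adjusted p = 8.5e-05 by edgeR). *dod-17* (-2.76), *F35E12.8* (-2.64), *irg-5* (-1.79) and *F55G11.8* (-1.17) were also lower on the log2 scale. *C17H12.8* and *dod-24* were higher, with log2 fold changes of 2.30 and 2.21. *irg-4* (0.06), *K08D8.5* (0.18) and *dod-22* (-1.09) were not called, and *dod-22* was called with the replicate block (adjusted p = 0.047).

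*T24B8.5* was then set against each of the other 9 effectors within each library, as the log2 ratio of its CPM to theirs with 0.5 count added to each. With 2 libraries against 2 an exact permutation test cannot give a p under 0.33, so these ratios are described without a test. The *cyp-36A1(lf); egl-9(lf)* ratio to each of the 9 genes was below its wild-type range, without overlap, and also below its *egl-9(lf) hif-1(lf)* range. Relative to *egl-9(lf)* mutants it was below for 8 of 9 and above for *irg-5* alone.

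The ratio of *T24B8.5* to *irg-5* was -2.05 and -1.57 for *cyp-36A1(lf); egl-9(lf)*, -0.79 and 0.20 for *egl-9(lf) hif-1(lf)*, -2.94 and -2.51 in *egl-9(lf)* and -0.57 and -0.38 in the wild type. *irg-5* thus gained on *T24B8.5* when *egl-9* was lost and gave up part of that gain on loss of *cyp-36A1*. The ratio to *C17H12.8* was -6.32 and -5.97 for *cyp-36A1(lf); egl-9(lf)*, -0.37 and -0.47 for *egl-9(lf) hif-1(lf)*, 0.03 and 0.33 in *egl-9(lf)* and 0.18 and -0.08 in the wild type. The 2 genes were therefore at similar CPM in 3 strains and far apart in the fourth. The ratio to *dod-24* was -7.31 and -6.99 for *cyp-36A1(lf); egl-9(lf)*, against -2.66 and -2.45 in *egl-9(lf)* and -1.56 and -1.46 in the wild type.

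The genes that were low in *egl-9(lf)* mutants gave the highest ratios there: 4.65 and 4.88 for *F35E12.8*, and 5.16 and 5.02 for *dod-17*. In *cyp-36A1(lf); egl-9(lf)* mutants the ratio to *F35E12.8* was 0.55 and 0.60, against 1.31 and 1.25 in the wild type, the smallest difference from the wild type of the 9 (-0.71). In *egl-9(lf)* mutants relative to the wild type the ratio was below for 4 genes, above for 3 and overlapping for 2.

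**Figure D3:**
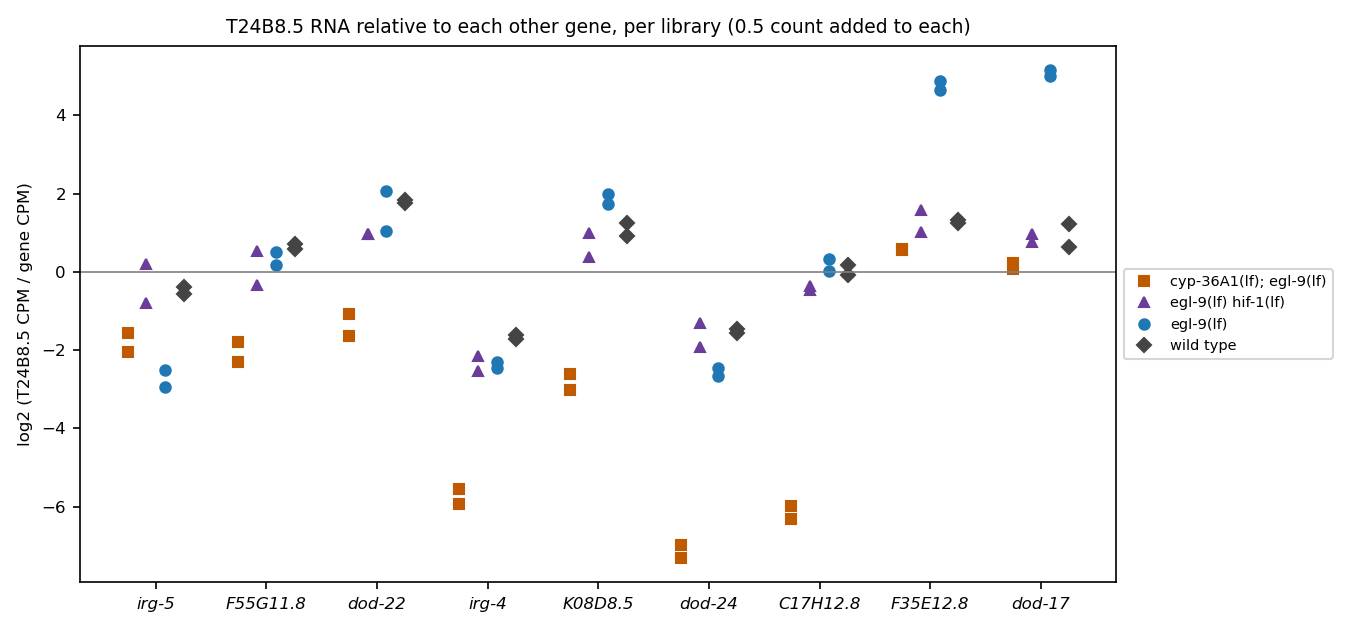
Log2 ratio of *T24B8.5* to each other effector in each library, by strain, with 1 point per library. Squares for *cyp-36A1(lf); egl-9(lf)* lie lowest for 8 of the 9 genes, down to -7.31 for *dod-24*; for *irg-5* the *egl-9(lf)* libraries lie lower, at -2.94 and -2.51.

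By the root-mean-square difference of gene-centred log2 CPM over the 8 libraries, *irg-5* was the effector most like *T24B8.5* (1.04), followed by *F55G11.8* (1.09) and *dod-22* (1.28). *C17H12.8* was the least like it (2.65). Among all 12718 genes with a mean of at least 1 CPM compared in this way, *irg-5* stood 23rd. The closest pairs within the set were *dod-22* with its neighbour *F55G11.8* (0.35), *F35E12.8* with *dod-17* (0.40) and *irg-4* with *dod-22* (0.49).

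The 5 genes nearest to *T24B8.5* were *mul-1* (F49F1.6), a mucin-like gene, at 0.54, *drd-50* (F49F1.1), from the same clone as *mul-1*, at 0.61, *F54F7.2* at 0.64, the C-type lectin gene *clec-190* (M199.4) at 0.71 and the cytochrome P450 gene *cyp-13B1* (F02C12.5) at 0.72. They were selected for this likeness, so their values are a description. *drd-50* had 0.206 and 0.249 CPM in *cyp-36A1(lf); egl-9(lf)*, 2.89 and 3.90 CPM in *egl-9(lf) hif-1(lf)*, 17.9 and 35.7 CPM in *egl-9(lf)* and 1.90 and 2.46 CPM in the wild type. *F54F7.2* had 1.44 and 1.31 CPM in *cyp-36A1(lf); egl-9(lf)*, 13.0 and 14.6 CPM in *egl-9(lf) hif-1(lf)*, 22.1 and 23.8 CPM in *egl-9(lf)* and 13.5 and 11.55 CPM in the wild type. Like *T24B8.5*, both were highest in *egl-9(lf)* and lowest in *cyp-36A1(lf); egl-9(lf)*, under the wild type. *drd-50*, *mul-1*, *clec-190* and *cyp-13B1* rested on few counts, 2 to 5 per library in *cyp-36A1(lf); egl-9(lf)*.

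The rest of the pathway was followed through a list of 25 further genes, all found in the table. Of 6 cascade genes (*tir-1*, *nsy-1*, *sek-1*, *pmk-1*, *vhp-1* and *tpa-1*), 0 were called in any of the 6 comparisons by edgeR. Over all tested features the share called ran between 0.215% and 13.3% by comparison. With 6 genes such shares give few calls or none, so the count does not set the cascade apart. At an unadjusted p under 0.05 there was 1 in each of 3 comparisons, edgeR's default estimate called 1 between *cyp-36A1(lf); egl-9(lf)* and the wild type, and DESeq2 and limma called 0. The shares above are those of the main fit alone. *pmk-1* RNA had 11.72 and 12.6 CPM in *cyp-36A1(lf); egl-9(lf)*, 10.7 and 9.59 CPM in *egl-9(lf) hif-1(lf)*, 10.5 and 11.72 CPM in *egl-9(lf)* and 13.8 and 13.3 CPM in the wild type. Its log2 fold change was 0.13 (SE 0.16) in *cyp-36A1(lf); egl-9(lf)* against *egl-9(lf)* mutants. RNA levels carry no information on whether PMK-1 was phosphorylated, which was not measured here.

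*sek-1*, the kinase kinase above PMK-1, had 41.4 and 47.7 CPM in *cyp-36A1(lf); egl-9(lf)*, 36.2 and 41.4 CPM in *egl-9(lf) hif-1(lf)*, 45.4 and 42.1 CPM in *egl-9(lf)* and 40.1 and 41.3 CPM in the wild type. *tir-1* lay between 12.6 and 16.1 CPM and *nsy-1* between 29.0 and 47.6 CPM over all libraries. *atf-7*, the transcription factor gene, lay between 199 and 248 CPM. Of 5 transcription factor genes, 2 were higher in *egl-9(lf)* mutants than in the wild type, *zip-2* (log2 fold change 0.61) and *skn-1* (0.42). Of all tested features 4.97% were higher there. *zip-2* was the 1 called in *cyp-36A1(lf); egl-9(lf)* against *egl-9(lf)* mutants (log2 fold change -1.19, adjusted p = 0.0028 by edgeR), where 0.903% of all tested features were lower. *zip-2*, which encodes a bZIP factor of the infection response, had 81.8 and 75.0 CPM in *cyp-36A1(lf); egl-9(lf)* mutants, against 212 and 146 CPM in *egl-9(lf)* mutants.

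Of 14 other infection-response effectors, 8 were higher and 2 lower in *egl-9(lf)* mutants than in the wild type, where 4.97% of all tested features were higher and 8.31% lower. On loss of *cyp-36A1* from *egl-9(lf)*, 2 were higher and 4 lower, where 0.664% of all tested features were higher and 0.903% lower. With its default estimate edgeR called 10, and these shares do not apply to that fit. *clec-60*, a C-type lectin gene, was highest in *cyp-36A1(lf); egl-9(lf)*. *C17H12.8* was also highest there, though it was not called against *egl-9(lf)* by edgeR. *clec-60* had 26.8 and 30.3 CPM in *cyp-36A1(lf); egl-9(lf)*, 0.189 and 0.325 CPM in *egl-9(lf) hif-1(lf)*, 7.53 and 7.96 CPM in *egl-9(lf)* and 0.181 and 0.340 CPM in the wild type. The fold change was 1.88 on the log2 scale (SE 0.17, adjusted p = 4.2e-05 by edgeR) in *cyp-36A1(lf); egl-9(lf)* against *egl-9(lf)* mutants, so an infection-response gene was raised further where *T24B8.5* fell. *mul-1* fell there, with a log2 fold change of -5.25 (SE 0.49). *dct-17*, which lies near *irg-5*, had 35.5 and 56.8 CPM in *egl-9(lf)* mutants, against 3.21 and 2.29 CPM in the wild type (log2 fold change 4.0).

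Genes from the same clones as the effectors were examined because they are defined by position. They include *irg-6*, *dod-21* and *dct-17*, 3 of the other infection-response effectors counted above, so the counts are not separate. Of 129 such features, 73 were tested, and 15 were higher and 5 lower in *egl-9(lf)* mutants than in the wild type (4.97% and 8.31% of all tested features). In *cyp-36A1(lf); egl-9(lf)* against *egl-9(lf)* mutants 0 were higher and 8 were lower (0.664% and 0.903% of all tested features). The same shares apply to the next counts. In the chromosome IV stretch of 22 protein-coding genes that runs between *K08D8.5* and *dod-17*, 19 were tested. Its genes outside the set come from the same clones, so they are counted again here. There 10 were higher and 1 was lower in *egl-9(lf)* mutants than in the wild type, 6 of the 10 being genes outside the set. On loss of *cyp-36A1* from *egl-9(lf)*, 8 were lower, 5 of them outside the set, and 0 were higher.

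Next to *F55G11.8*, *F55G11.6* and *F55G11.7* were almost silent outside *egl-9(lf)* mutants. *F55G11.7* had 0 and 1 counts in *cyp-36A1(lf); egl-9(lf)*, 0 and 0 for *egl-9(lf) hif-1(lf)*, 93 and 84 in *egl-9(lf)* and 2 and 0 in the wild type. *F55G11.6* had 2 and 0 counts in *cyp-36A1(lf); egl-9(lf)*, 2 and 2 for *egl-9(lf) hif-1(lf)*, 74 and 66 in *egl-9(lf)* and 0 and 0 in the wild type. Taking 3 counts over the 2 wild-type libraries as the limit for *F55G11.6*, it was at least 52.9-fold higher in *egl-9(lf)* mutants.

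In *cyp-36A1(lf); egl-9(lf)* mutants *F55G11.7* was 210-fold lower than it was with *egl-9* loss alone, with a 95% exact counting interval of 37.3 to 8358. *F55G11.6* was 83.2-fold lower (22.6 to 694), and *irg-6* (C32H11.1), next to *K08D8.5*, was 49.9-fold lower (8.49 to 2019) from 1 count against 42. These intervals cover counting error only. *mbug-1* (F55G11.4), next to *dod-17*, was more abundant, with 30.0 and 37.6 CPM in *cyp-36A1(lf); egl-9(lf)*, 19.1 and 35.2 CPM in *egl-9(lf) hif-1(lf)*, 138 and 178 CPM in *egl-9(lf)* and 7.0 and 11.13 CPM in the wild type.

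*dod-21* (C32H11.10), which lies near *dod-24*, fell by less (log2 fold change -1.37 on loss of *cyp-36A1*). It had 6.53 and 7.64 CPM in *cyp-36A1(lf); egl-9(lf)*, 0.252 and 0.108 CPM in *egl-9(lf) hif-1(lf)*, 17.8 and 18.6 CPM in *egl-9(lf)* and 0.406 and 0.255 CPM in the wild type. *cld-1* (C32H11.9), the gene before *dod-21*, had 21 and 52 counts in *cyp-36A1(lf); egl-9(lf)*, against 12 and 44 counts in *egl-9(lf)* mutants and 0 and 0 in the wild type. It was at least 21.2-fold higher in *egl-9(lf)* mutants than in the wild type, and its replicates were uneven. Genes side by side in the stretch thus differed in how much of their *egl-9(lf)* level remained without *cyp-36A1*.

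**Figure D4:**
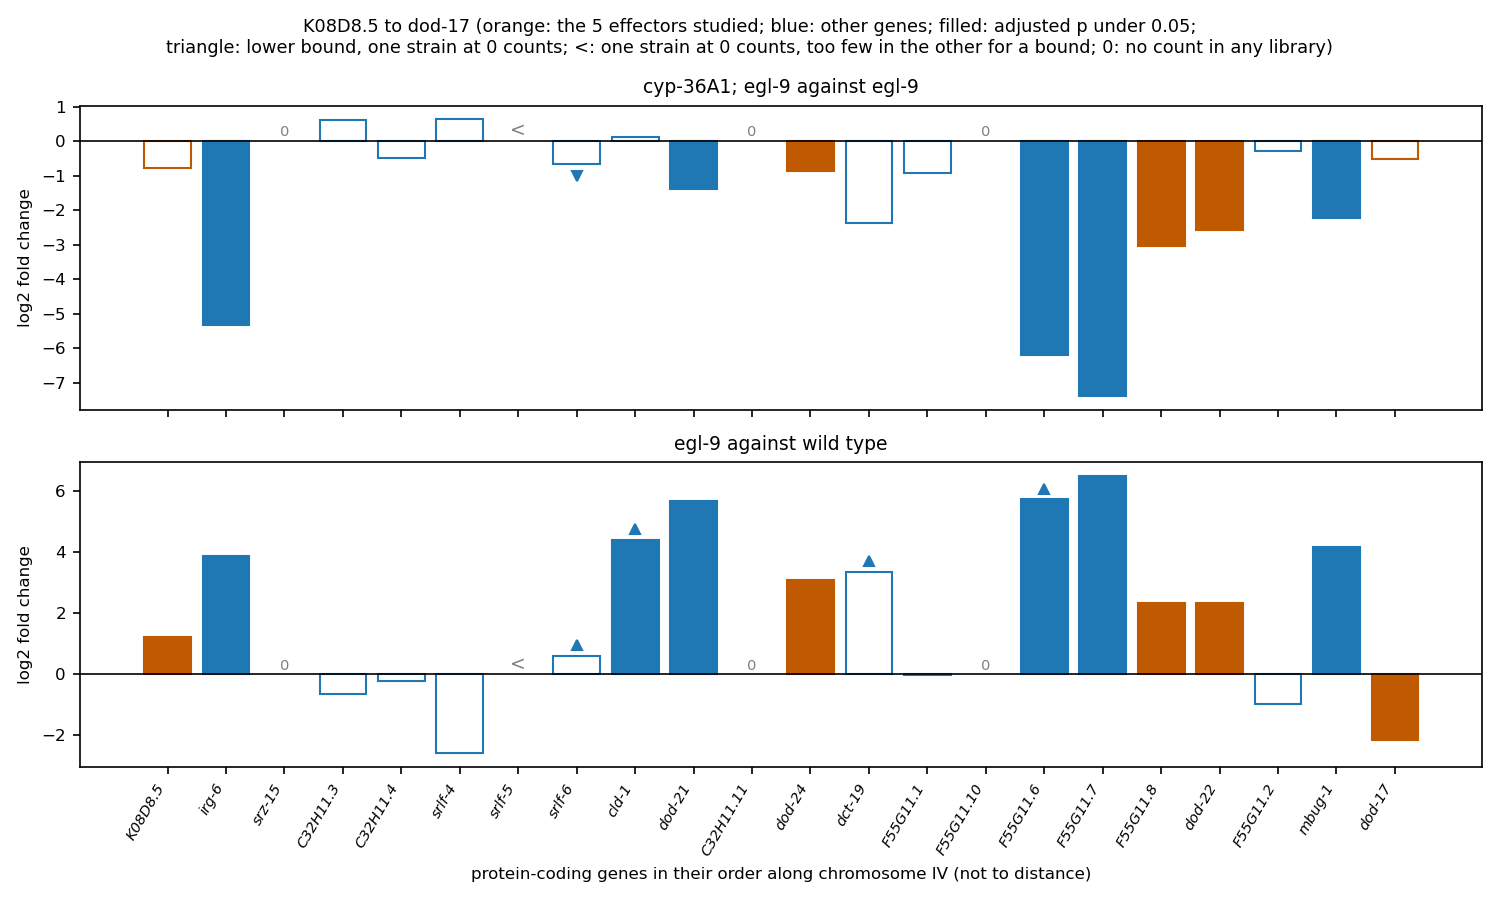
Log2 fold change of the 22 protein-coding genes between *K08D8.5* and *dod-17* in their order on chromosome IV, with equal spacing, on loss of *cyp-36A1* from *egl-9(lf)* (top) and in *egl-9(lf)* against the wild type (bottom); orange bars are the 5 effectors, blue bars other genes, and filled bars were called. Triangles mark lower bounds where a strain had 0 counts; 8 genes were lower in the top panel, and 10 were higher and 1 lower in the bottom panel.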

How the data were processed

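The authors aligned single-end reads of polyadenylated RNA with RSEM 1.2.15 and Bowtie 1.0.1 to ce10 with the Ensembl 65 annotation, and deposited expected counts and FPKM per gene, neither normalized between libraries by any further step. RSEM divides reads among similar genes: 7 of the 10 effectors had counts that were not whole in some library (*F55G11.8* in all 8), so their values carry that uncertainty. Library strandedness is not given in the sources used here.

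Counts were rounded and features with a count in at least 1 library were fitted in edgeR 4.0.16 (R 4.3.3): TMM scaling, 1 mean per strain, glmQLFit with legacy=FALSE, which leaves each gene part of its own spread (median prior degrees of freedom 7.80; infinite by default), and Benjamini-Hochberg adjustment. The SE of a log2 fold change is its size over the root of the F statistic. CPM are TMM-scaled. The script was tested on counts simulated for the third comparison. Those counts held no replicate effect, so that test does not bear on pairing of libraries. Alternatives were the default estimate, other scalings and filters, DESeq2 1.42.0, limma 3.58.1 on log2(FPKM + 0.1, 0.5 or 1) keeping genes that reached an FPKM of 1 in 2 or more libraries, a replicate block, fits to 2 strains and each library left out.

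The genes, lists and tests were chosen with earlier results of these data known. Named genes were the 10 effectors, the mutated genes, the cascade genes, *atf-7*, the 5 genes most like *T24B8.5*, and, of the clone neighbours and the pathway list, the 4 called genes with the largest changes in the first and the third comparison; *zip-2*, *skn-1* and the cell type markers were named after their values were seen. Names and gene order came from RefSeq (WBcel235), another build than ce10, so no coordinates are given. Promoter motifs were not analysed here.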

Additional observations from a re-analysis of the deposited data

How the results depend on the processing

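Of 1140 values for the 10 effectors under the alternatives, 1099 kept their direction and their side of the threshold, 31 passed it only under the alternative, 10 no longer passed it and 0 changed direction when called. *T24B8.5* kept its call, or its lack of one, in all 19 alternatives of each comparison. With each library left out in turn its log2 fold change was 1.87 to 2.14 for *egl-9(lf)* over the wild type, -2.68 to -1.61 for *egl-9(lf) hif-1(lf)* over *egl-9(lf)*, -5.62 to -5.28 for *cyp-36A1(lf); egl-9(lf)* over *egl-9(lf)*, and -3.58 to -3.28 for *cyp-36A1(lf); egl-9(lf)* over the wild type. Between the double mutants it was -3.85 to -2.79, and -0.64 to 0.43 for *egl-9(lf) hif-1(lf)* over the wild type. Effectors called in *egl-9(lf) hif-1(lf)* against the wild type numbered 0, but 2 with the default estimate and 0 to 1 with a library left out. Those called in *cyp-36A1(lf); egl-9(lf)* against *egl-9(lf)* numbered 6, but 9 with the default estimate. The default estimate removes the gene's own spread. The replicate numbers were not treated as pairing the libraries in the main fit, and the labels name no shared batch or day. Same-numbered deviations from the strain means nevertheless correlated in all 6 pairs of strains, by 0.098 in the lowest and 0.291 in the highest. Only the lowest was under the limit of 0.1 set for pairing, and the next was 0.157. Pairing was therefore not excluded, and a fit with a replicate block is given as an alternative. With the replicate block, 9 effectors were called in *cyp-36A1(lf); egl-9(lf)* against *egl-9(lf)*, 10 for *egl-9(lf)* over the wild type, and 8 for *cyp-36A1(lf); egl-9(lf)* over it. The shares of all tested features given above are those of the main fit. They do not apply to counts from the alternatives.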
